A study of Mus musculus with 6 samples.

Results

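The nuclear pore complex genes of the embryonic mouse submandibular gland were followed through inhibition of non-muscle myosin II. Members were the rows of the deposited gene table whose symbol is Nup followed by digits, with l1 or l2 allowed after them, together with Pom121, Ndc1, Ranbp2, Tpr, Seh1l, Sec13, Aaas and Rae1, which gave 27 of 24067 genes. The rule names symbols and uses no measured value, though its members were chosen with earlier results of these data known. It leaves out Nupl1 and Nupl2, which code for channel and filament nucleoporins under older symbols, and Ahctf1, and these are described with the transport factors. Each of the 6 libraries held RNA of ICR embryos at embryonic day 13, labelled as submandibular gland and in the title as epithelial buds: 3 served as control and 3 had received blebbistatin, an inhibitor of the motor protein non-muscle myosin II. Dose, duration, vehicle and the number of glands pooled were left unstated in the sources used here. No label says whether the 3 libraries of a group were separate litters or cultures, so p-values measure a spread that may be technical.

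Nuclear pores are the channels through which proteins and RNA pass between nucleus and cytoplasm. A scaffold of outer and inner rings bends and holds the pore membrane, a membrane ring anchors it, and a central channel filled with proteins rich in phenylalanine-glycine repeats lets transport receptors through. A basket reaches into the nucleus and filaments reach into the cytoplasm. Dividing cells take the complex apart at mitosis and build it again, and they insert further pores as nuclei grow.

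Values are FPKM, fragments scaled to transcript length and library depth, which is meant to make levels comparable between genes. A trend with transcript length still differed between the libraries, as given further down, so comparisons between genes are rough. Depth was estimated at 28300000 to 34500000 fragments per library. The median of small transcript values inside a set window was taken as 1 fragment. The window itself bounds the estimate, so the fragment numbers and counting errors that follow are rough. A member then rested on about 558 fragments (Nup35 in the shallowest case) to 9120 fragments (Tpr), so that counting alone gives an error of 4.2% down to 1.0%. The coefficient of variation over the 6 libraries was between 4.54% and 15.2% for the 27 genes, with a median of 10.5%. The summed level of 6 epithelial markers was 1250 to 1570 FPKM in controls and 1180 to 1520 FPKM in treated libraries. The sum of 6 mesenchymal markers was 16.6, 4.57 and 4.50 FPKM in control replicates 1 to 3 and 3.10, 4.93 and 6.04 FPKM in blebbistatin replicates 1 to 3, with Twist1 listed at 0 in the last. All 4 endothelial markers were below 1 FPKM in each library. Their sum was 0.564, 0.527 and 0.645 FPKM in controls and 0.784, 0.934 and 0.905 FPKM in treated libraries, without overlap. The markers went both ways, with Pecam1 and Tek higher in treated libraries and Cdh5 and Kdr lower by their means. Cdh5 was at 0.044, 0.015 and 0.017 FPKM in controls and at 0 in the treated libraries. The part of such cells in the values of the pore genes was not tested. In the same libraries 4 neuronal markers summed to at most 1.88 FPKM and 4 leukocyte markers to at most 2.14 FPKM.

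All 27 genes were expressed, and 23 of them lay at or above the median of the 11540 genes with a mean of at least 1 FPKM. The median member stood at 22.5 FPKM, against 12.6 FPKM for all genes tested. Nup62, of the channel, was the most abundant member in each of the 6 libraries, and Nup35, of the inner ring, was the least abundant in each. Their means over all libraries, 62.3 and 7.89 FPKM, differed 7.90-fold. The order of the members hardly changed between libraries, with Spearman correlations across the 27 genes from 0.973 to 0.992. These describe the libraries, since genes are not independent replicates.

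**Figure D1:**
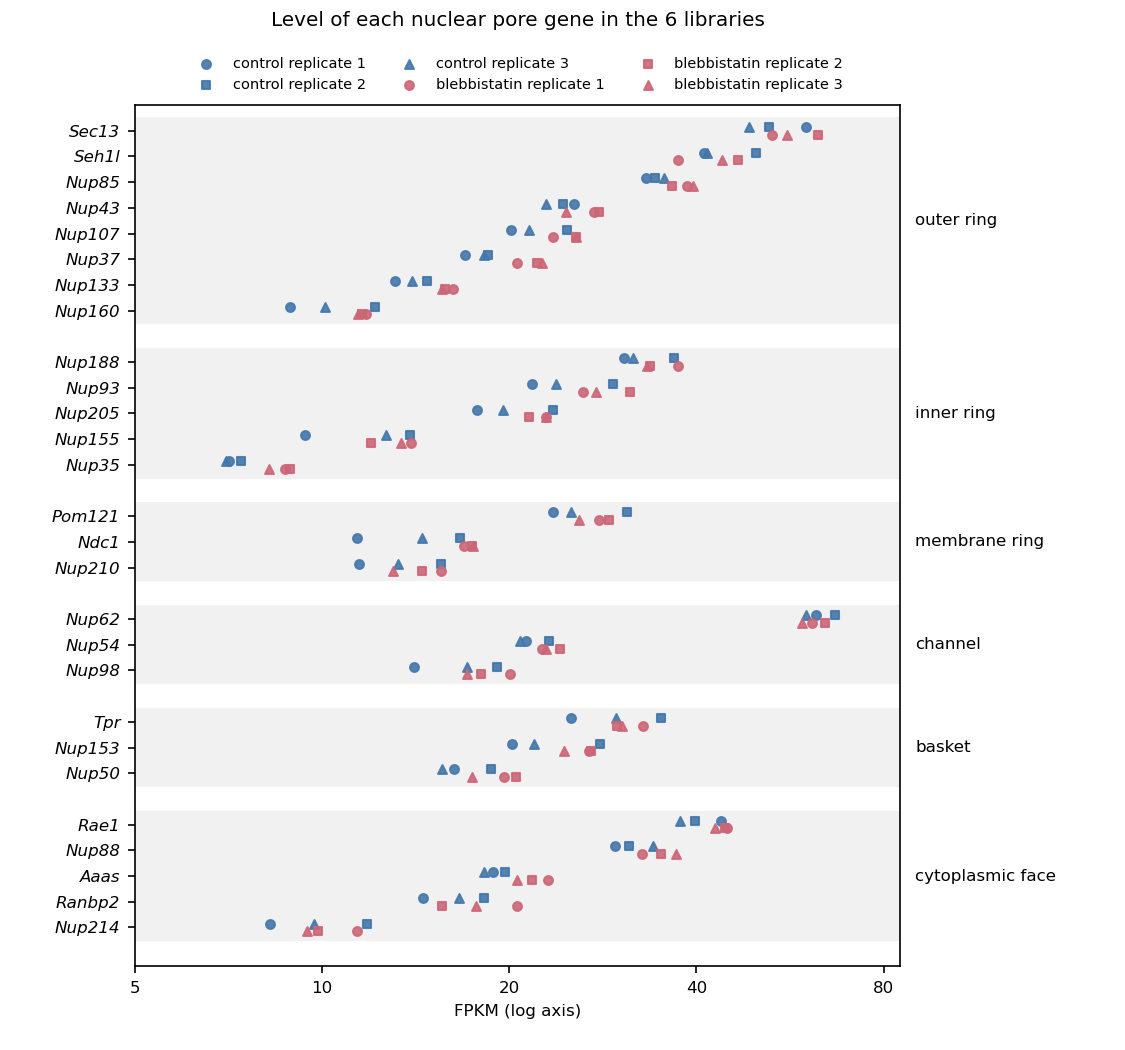
FPKM of each of the 27 nuclear pore genes on a log axis, grouped by the part of the pore, with 1 point for each library (blue for control, red for blebbistatin, and the shape for the replicate number). Nup62 lies at the top of the range with 59.2 to 66.7 FPKM and Nup35 at the bottom with 7.01 to 8.88 FPKM, and control replicate 1 is often the leftmost point.

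No nuclear pore gene passed the test between blebbistatin and control libraries, although nearly all had slightly higher means under blebbistatin. With limma over all 11540 genes, 0 of 27 members had an adjusted p under 0.05, where 0.0780% of all genes did. At an unadjusted p under 0.05 there were 3 members, Nup37, Nup35 and Aaas, all higher, against 4.46% of all genes in that direction and 9.36% in both. Means were higher in 25 of 27 members, against 55.2% of genes tested, and the median log2 fold change was 0.13, against 0.015 over all genes. Fold changes were computed as treated minus control on the log2(FPKM + 1) scale, which understates changes of low genes, and carry the moderated standard error (SE). The 3 treated libraries lay all above the 3 controls for 6 members, Nup37, Nup35, Aaas, Ndc1, Nup133 and Nup85, where 7.48% of all genes did so, and all below for 0 members, where 6.80% of all genes did. The 95% intervals of the members ran from -0.32 at the lowest bound (Seh1l) to 0.58 at the highest (Ndc1). In bulk RNA, fewer cells of a type and less RNA per cell cannot be told apart.

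The size of the median depended on which control library was left out. Without control replicate 1 it was 0.078 and 20 of 27 means were higher, against a median of 0.024 and 56.8% over all genes. Without control replicate 2 it was 0.20 and 27 of 27 were higher, against 0.024 and 56% over all genes. The count of 6 members without overlap became 9 without control replicate 1 and 17 without control replicate 2, with 17.2% of all genes in either case. It was 7 when control replicate 3 was left out, against 9.76% of all genes. Leaving out blebbistatin replicate 1, 2 or 3 gave 8, 6 and 9 members in that order, against 12.1%, 9.68% and 12.7% of all genes. In none of these settings did a member pass.

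**Figure D2:**
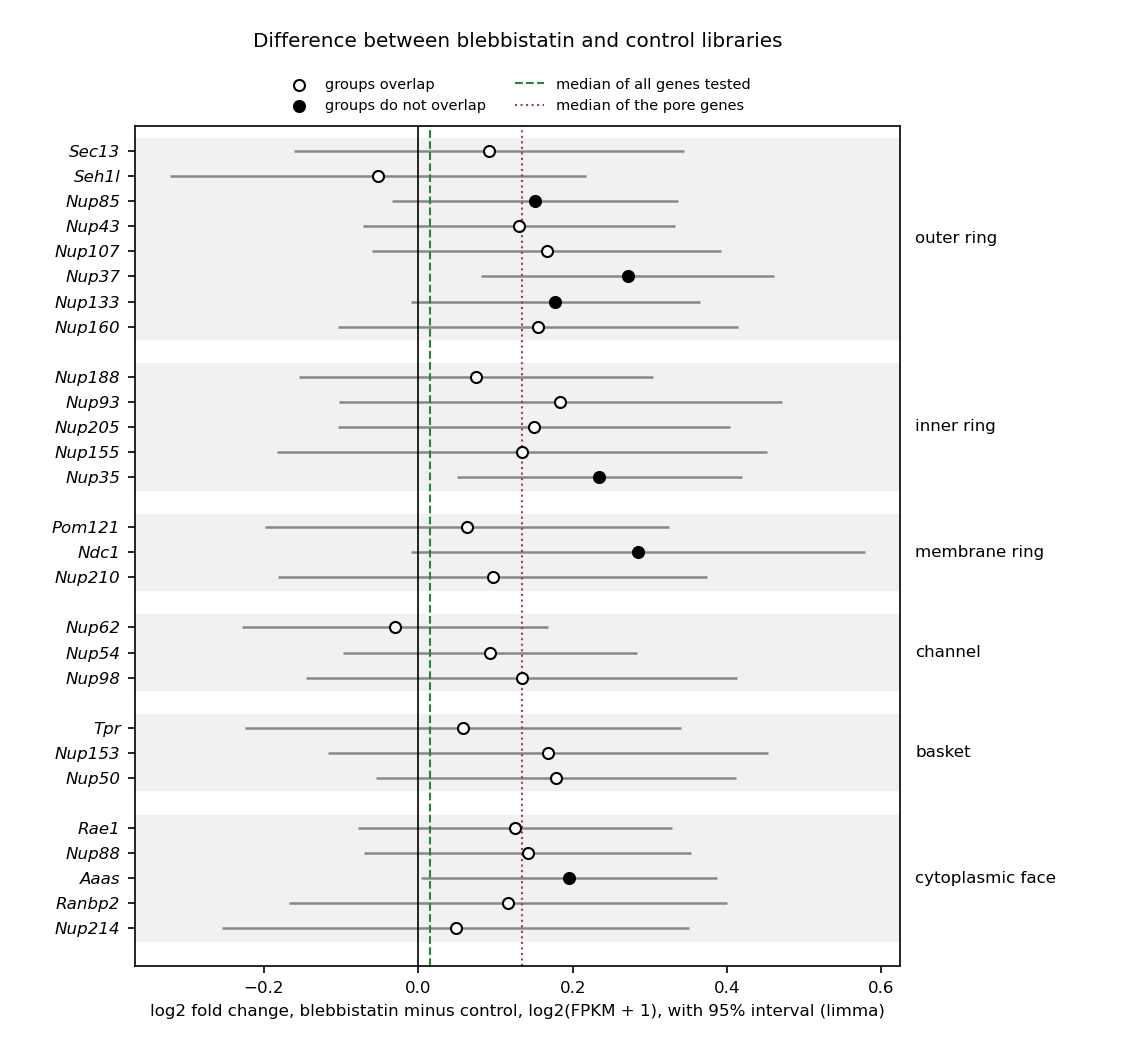
Log2 fold change of each member on the log2(FPKM + 1) scale, treated minus control, with its 95% interval from limma. Filled points mark the 6 genes whose groups did not overlap, the dashed line is the median of all genes tested (0.015) and the dotted line the median of the members (0.13), and 3 of the 27 intervals lie wholly above 0.

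Positions are those of the deposited annotation on mm10. Nup37 lies on chromosome 10 from 88146992 to 88178395, Nup35 on chromosome 2 from 80638812 to 80660071, and Aaas on chromosome 15 from 102338247 to 102350759. Ndc1 lies on chromosome 4 from 107367784 to 107414338, Nup133 on chromosome 8 from 123897123 to 123949265, and Nup85 on chromosome 11 from 115564444 to 115583924. Nup98 spans chromosome 7 from 102119400 to 102210166. None of these 7 shares exon sequence with a neighbour. Exons of Nup88, Pom121, Seh1l and Tpr overlap a gene on the opposite strand, up to 658 bases with Nsun5 for Pom121, and Nup62 overlaps Atf5 on the opposite strand and the read-through gene Nup62-il4i1 on its own. The strand setting of the counting was not stated in the sources used here, so fragments of these 5 members may be shared.

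Promoter windows from RefSeq (GRCm38.p6), 250 bases before to 50 after the start, were matched for 23 of the 27 members, all but Nup35, Nup43, Nup85 and Seh1l. Both strands were searched for 4 motifs, and a match is a description of the letters, not a site. The ETS core CCGGAAG was in 7 of 23 members (30.4%), against 8.86% of all 32851 windows and 21.3% of 8681 tested genes with a window. The palindromic NRF1 motif, GCGCA joined to TGCGC, was in 3 of 23 members, Nup107, Nup50 and Nup62, against 0.971% and 2.52%. The CCAAT box was in 9 members (39.1%), against 37.4% and 43.5%, and the cell cycle homology region, searched as TTTGAA or TTCGAA, in 6 (26.1%), against 19.2% and 15.8%. The motifs do not overlap one another in the windows shown. The 3 windows shown are those of Nup37 and Aaas, the members of smallest p with a window, and of Nup107, the one with both an ETS core and an NRF1 motif. Only the 250 bases before the start are printed, 5′ to 3′ on the strand of the gene, with motif letters in capitals. They lie at chr10:88146742-88146991 on the plus strand for Nup37, chr15:102350760-102351009 on the minus strand for Aaas and chr10:117792706-117792955 on the minus strand for Nup107.
Nup37: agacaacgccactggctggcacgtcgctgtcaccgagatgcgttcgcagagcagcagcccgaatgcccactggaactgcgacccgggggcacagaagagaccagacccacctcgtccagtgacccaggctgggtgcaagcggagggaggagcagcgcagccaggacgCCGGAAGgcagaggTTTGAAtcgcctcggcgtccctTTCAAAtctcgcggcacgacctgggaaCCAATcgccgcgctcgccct
Aaas: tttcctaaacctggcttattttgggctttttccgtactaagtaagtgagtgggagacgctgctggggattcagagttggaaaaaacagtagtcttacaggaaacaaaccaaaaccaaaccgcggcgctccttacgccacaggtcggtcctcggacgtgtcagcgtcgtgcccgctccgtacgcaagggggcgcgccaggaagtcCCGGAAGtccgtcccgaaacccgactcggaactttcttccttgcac
Nup107: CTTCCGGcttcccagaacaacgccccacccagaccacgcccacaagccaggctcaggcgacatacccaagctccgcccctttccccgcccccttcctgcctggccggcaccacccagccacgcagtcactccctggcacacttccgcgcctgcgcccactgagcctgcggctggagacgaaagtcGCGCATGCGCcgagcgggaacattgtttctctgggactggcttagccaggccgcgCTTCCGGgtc

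In this stretch Nup37 holds a CCAAT box, an ETS core and 2 matches to the cell cycle homology region, 1 on each strand. Aaas holds 1 ETS core, and Nup107 holds 2 ETS cores around 1 NRF1 motif. The control and treated values of Nup37 and Aaas did not overlap and those of Nup107 did, as given with each gene. Nup37 and Aaas were chosen for their small p, and a link between motifs and levels was not tested.

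The outer ring is built of Y-shaped complexes that form the main scaffold on both faces of the pore. Of its 8 members 7 had higher means and 1 lower, 0 passed, and the median log2 fold change was 0.15. For this and every other part of the pore, 55.2% of all genes tested had higher means. Over all genes 0.0780% passed (limma), and the median was 0.015. Nup37, a small subunit of the Y complex, had the smallest p of all members, and its promoter is shown with those of Aaas and Nup107. It stood at 17.0, 18.5 and 18.2 FPKM in control replicates 1 to 3 and at 20.6, 22.2 and 22.6 FPKM in blebbistatin replicates 1 to 3. Every treated library was above every control, and the log2 fold change was 0.27 ± 0.08 (SE, limma adjusted p = 0.281). Without control replicate 1 it was 0.24.

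Nup133, which lies at the membrane-binding end of the complex, stood at 13.1, 14.8 and 13.9 FPKM in controls and at 16.2, 15.8 and 15.6 FPKM in treated libraries. The groups did not overlap, with a log2 fold change of 0.18 ± 0.08 (SE, limma adjusted p = 0.571). Nup85, of the short arm of the Y, stood at 33.2, 34.3 and 35.4 FPKM in controls and at 38.6, 36.5 and 39.5 FPKM in treated libraries. Again all treated libraries were above all controls (0.15 ± 0.08, limma adjusted p = 0.677).

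The other members of the outer ring overlapped between the groups. Nup107, the partner of Nup133 in the stem and the gene whose window held the NRF1 motif shown, was at 20.1, 24.7 and 21.5 FPKM in controls and 23.5, 25.6 and 25.6 FPKM in treated libraries, so that control replicate 2 lay among the treated libraries. Nup43, another small subunit, was at 25.4, 24.4 and 22.9 FPKM in controls and 27.3, 27.8 and 24.7 FPKM in treated libraries, with blebbistatin replicate 3 below control replicate 1. Nup160, a large arm of the Y and the least abundant of the ring, was at 8.88, 12.2 and 10.1 FPKM in controls and 11.8, 11.6 and 11.4 FPKM in treated libraries, where control replicate 2 was the highest of all 6. Their log2 fold changes were 0.17 ± 0.10, 0.13 ± 0.09 and 0.16 ± 0.11 in that order (SE).

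Sec13 and Seh1l, which also serve outside the pore, Sec13 in the coat of vesicles leaving the endoplasmic reticulum and Seh1l in nutrient sensing at the lysosome, were the most abundant members of the ring. Sec13 stood at 60.0, 52.4 and 48.6 FPKM in controls and 52.9, 62.8 and 55.9 FPKM in treated libraries (log2 fold change 0.09 ± 0.11, SE), and control replicate 1 was the second highest of the 6. Seh1l had the lowest log2 fold change of the 27 members, with 44.2 ± 4.89 FPKM in controls and 42.6 ± 4.77 FPKM in treated libraries (SD, n = 3) and -0.05 ± 0.12 (SE). The sign of Seh1l turned without control replicate 2 (0.035) and without blebbistatin replicate 1 (0.038).

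The inner ring surrounds the channel and holds its proteins in place. All 5 members had higher means, 0 passed, and the median log2 fold change was 0.15. Nup35, which binds the pore membrane, stood at 7.07, 7.42 and 7.01 FPKM in controls and at 8.72, 8.88 and 8.23 FPKM in treated libraries. The groups did not overlap, with the second smallest p of all members (log2 fold change 0.23 ± 0.08, SE, limma adjusted p = 0.350), and the value was 0.23 without control replicate 1 as well.

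Nup93, the linker that recruits the channel proteins, was at 21.7, 29.4 and 23.8 FPKM in controls and 26.3, 31.2 and 27.6 FPKM in treated libraries (0.18 ± 0.12, SE). Nup188, the most abundant of the ring, was at 30.6, 36.8 and 31.6 FPKM in controls and 37.3, 33.7 and 33.3 FPKM in treated libraries (0.08 ± 0.10). Control replicate 2 lay among the treated libraries for both. Its large relative Nup205 had means of 20.3 ± 2.95 and 22.5 ± 0.84 FPKM, and Nup155, a membrane-binding scaffold protein, 11.96 ± 2.31 and 13.1 ± 0.99 FPKM (SD, n = 3, control first). Without control replicate 1 the log2 fold change of Nup155 was -0.018.

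The membrane ring consists of proteins that span the nuclear envelope. All 3 had higher means, 0 passed, and the median log2 fold change was 0.10. Ndc1, a transmembrane protein also needed for pore insertion, had the highest log2 fold change of all members, 0.28 ± 0.13 (SE, limma adjusted p = 0.556). It stood at 11.4, 16.6 and 14.5 FPKM in controls and at 16.9, 17.4 and 17.5 FPKM in treated libraries. The treated libraries lay close together, just above control replicate 2, while control replicate 1 was far below the rest, and without that library the log2 fold change was 0.15.

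Pom121, whose repeats face the channel, was at 23.5, 30.9 and 25.1 FPKM in controls and 27.9, 29.0 and 25.9 FPKM in treated libraries (0.06 ± 0.11, SE). Nup210, a glycoprotein of the lumen of the envelope, was at 11.5, 15.5 and 13.2 FPKM in controls and 15.5, 14.5 and 13.01 FPKM in treated libraries (0.10 ± 0.12). Controls spanned the treated values in both. Without control replicate 1 their log2 fold changes were -0.015 and -0.0036.

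The channel proteins showed the smallest median of the 6 parts, 0.09, with 2 of 3 means higher and 0 passed. Nup62, the central channel protein, stood at 62.3, 66.7 and 59.9 FPKM in controls and at 61.3, 64.3 and 59.2 FPKM in treated libraries. The groups overlapped, with a log2 fold change of -0.03 ± 0.09 (SE), a 95% interval from -0.23 to 0.17, and 0.012 without control replicate 2. Its partner Nup54 had means of 21.7 ± 1.24 and 23.2 ± 0.80 FPKM (SD, n = 3, control first). Nup98, which codes both for a channel protein and for the outer ring protein NUP96, was at 14.1, 19.1 and 17.1 FPKM in controls and 20.04, 17.99 and 17.1 FPKM in treated libraries (0.13 ± 0.12), with control replicate 2 among the treated libraries. Differences between the parts of the pore were not tested.

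The basket members had higher means in 3 of 3 cases, 0 passed, and the median log2 fold change was 0.17. Tpr, the coiled-coil protein that forms the basket filaments, was at 25.2, 35.1 and 29.6 FPKM in controls and 32.8, 29.8 and 30.4 FPKM in treated libraries (0.06 ± 0.12, SE). Control replicates 1 and 2 were the lowest and the highest of the 6 libraries for Tpr, and the value was -0.057 without control replicate 1. Nup50, a mobile cofactor of import, was at 16.3, 18.7 and 15.6 FPKM in controls and 19.6, 20.5 and 17.4 FPKM in treated libraries (0.18 ± 0.10), and control replicate 2 lay among the treated libraries. Nup153, which ties the basket to the ring and the lamina, had means of 23.4 ± 4.06 and 26.1 ± 1.41 FPKM (SD, n = 3, control first) and a log2 fold change of 0.17 ± 0.12 (SE).

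On the cytoplasmic face all 5 members had higher means, 0 passed, and the median log2 fold change was 0.13. Aaas, which codes for ALADIN, a WD-repeat protein anchored by Ndc1, stood at 18.8, 19.7 and 18.2 FPKM in controls and at 23.1, 21.7 and 20.6 FPKM in treated libraries. The groups did not overlap (log2 fold change 0.20 ± 0.08, SE, limma adjusted p = 0.519), and the value was 0.19 without control replicate 1. Rae1, an mRNA export factor that binds NUP98, was at 43.8, 39.7 and 37.6 FPKM in controls and 44.7, 44.5 and 42.9 FPKM in treated libraries (0.13 ± 0.09). Control replicate 1 of Rae1 lay among the treated libraries.

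Nup88, which with Nup214 carries export receptors and the RNA helicase of mRNA export, was at 29.6, 31.2 and 34.0 FPKM in controls and 32.7, 35.03 and 37.1 FPKM in treated libraries (0.14 ± 0.09, SE). Here control replicate 3 lay among the treated libraries. Nup214 itself, the least abundant of this face, was at 8.25, 11.8 and 9.71 FPKM in controls and 11.4, 9.85 and 9.45 FPKM in treated libraries (0.05 ± 0.13), and -0.065 without control replicate 1. The filament protein Ranbp2, a SUMO ligase that binds the GTPase Ran, had means of 16.5 ± 1.85 and 17.96 ± 2.51 FPKM (SD, n = 3, control first) and a log2 fold change of 0.12 ± 0.12 (SE).

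Across the 27 genes the libraries deviated together. Each gene's log2(FPKM + 1) was set against its own mean over all libraries, and the average of these deviations was -0.17, 0.068 and -0.092 in control replicates 1 to 3 and 0.083, 0.079 and 0.035 in blebbistatin replicates 1 to 3. Control replicate 2 thus lay among the treated libraries, and control replicate 1 lay lowest. Over all genes tested the same means were between -0.032 and 0.015. Control replicate 1 was the lowest of the 6 libraries for 18 of 27 members, against 23.0% of all genes, while control replicate 3 was lowest for 7 of 27, against 26.4% of all genes.

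The deviations of genes of dividing cells are given beside these. A list of 20 mitotic genes had deviations of -0.49, 0.026 and -0.12 in the controls and 0.25, 0.13 and 0.20 in the treated libraries, and 20 DNA replication genes had -0.10, -0.0092 and -0.15 and then 0.11, 0.14 and 0.012. Control replicate 1 was lowest for the mitotic list, as for the pore genes, but control replicate 2 lay below every treated library there, and control replicate 3 was lowest for the replication list. Both lists were chosen with earlier results of these data known, so their counts describe them and are no independent support. The mitotic list had a median log2 fold change of 0.41 and the replication list one of 0.20, against 0.015 over all genes. In each list 0 of 20 passed (limma), against 0.0780% of all genes. Unadjusted p was under 0.05 for 15 and 8 (limma), all higher, against 4.46% of all genes in that direction. Means were higher in 20 of 20 mitotic genes and 19 of 20 replication genes, against 55.2% of all genes tested. The groups did not overlap, treated higher, for 16 and 10, against 7.48% of all genes. The summed mesenchymal markers were highest in control replicate 1, as given above. The part of dividing cells and of mesenchyme in the values of the pore genes was not tested.

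**Figure D3:**
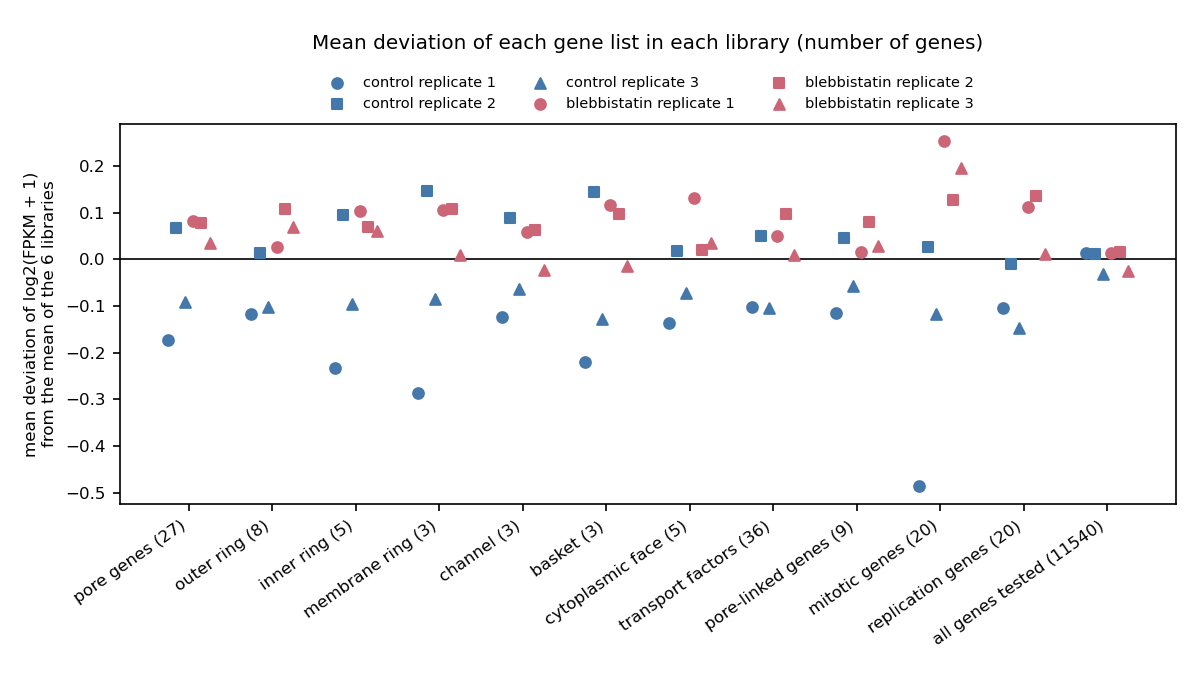
Average deviation of log2(FPKM + 1) from each gene's own mean, for each list (number of genes in brackets) and each library (blue for control, red for blebbistatin). Control replicate 1 is lowest for the 27 pore genes (-0.17) and for the 20 mitotic genes (-0.49), while all genes tested lie between -0.032 and 0.015.

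Many nucleoporins are large, and transcript length separated the libraries. Over all 11540 genes the Spearman correlation between the length of the main transcript and the deviation was -0.503 in control replicate 1, 0.444 in control replicate 2 and 0.196 in control replicate 3, and between -0.0407 and 0.0793 in the treated libraries. Over the 27 members it was -0.659, 0.747 and 0.451 in the controls and 0.577, -0.574 and -0.275 in the treated libraries. Points within a library share its depth and preparation, and these values carry no test. Among the 14 members with a main transcript of 3542 bases or more, control replicate 1 was lowest for 12, against 42.3% of all genes of that length. Among the 13 shorter members it was lowest for 6, against 12.6% of shorter genes.

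All treated libraries lay above all controls for 5 of 13 short members, where 7.36% of all shorter genes did so, and for 1 of 14 long members (Nup133), where 7.70% of all longer genes did so. The difference between the classes was not tested. The standard errors were smaller for the short members, with a median of 0.09 against 0.12, while the median log2 fold changes were 0.15 and 0.13. When the trend with length was removed from each library, a step added after the data were seen, the median over members was 0.12, 25 of 27 were higher and 0 passed. The deviations were then -0.15, 0.027 and -0.052 in the controls and 0.053, 0.063 and 0.056 in the treated libraries, so that all 3 treated libraries lay above the controls.

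**Figure D4:**
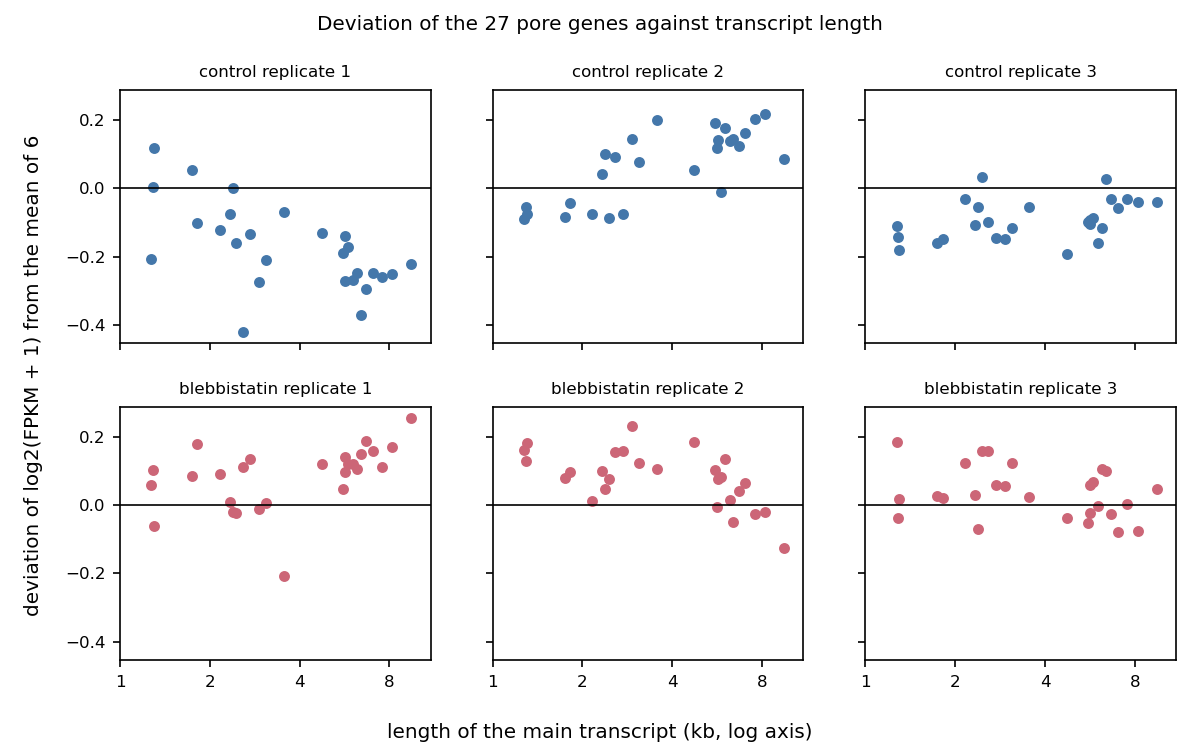
Deviation of log2(FPKM + 1) from the gene's own mean for each of the 27 members (points) against the length of its main transcript in kilobases on a log axis, 1 panel for each library. Long members lie low in control replicate 1 (Spearman correlation -0.659) and high in control replicate 2 (0.747).

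Isoforms gave no call either. The 27 genes have 37 annotated transcripts, and 22 genes have a single one. Genes with a single transcript repeat their gene values here, so most of these rows are not separate from the gene result. Of 31 transcripts with a mean of at least 1 FPKM, 29 had higher means. The share of all transcripts with higher means is not given. With limma 0 of the 31 passed (smallest adjusted p = 0.502), where 0.00692% of all 14460 transcripts passed. Unadjusted p was under 0.05 for 3 (limma), all higher, against 8.08% of all transcripts in both directions. Of 8 transcript shares in 4 genes, 0 passed, with 0 at an unadjusted p under 0.05, while 0% of all 4997 shares passed and 4.66% had an unadjusted p under 0.05 (limma).

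The mRNA of Nup98 can encode NUP98 alone or a precursor that cleaves itself into NUP98 and NUP96. Which of these products each transcript encodes was not examined. Those of 3930 and 3961 bases, with 2901 and 2952 coding bases, had shares too small for the test. The transcript of 6682 bases has 5448 coding bases and is the only one of 5 that reaches the far end of the locus. It made up 78.6%, 73.8% and 74.1% of the summed FPKM of the gene in the controls and 73.8%, 74.3% and 76.6% in the treated libraries. A transcript of 4064 bases with 3510 coding bases, which ends earlier, made up 16.7%, 22.1% and 19.7% and then 22.5%, 21.3% and 18.3%. The groups overlapped for both (limma adjusted p = 1.00 for each).

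Nup37 has transcripts that start apart but have equal coding lengths of 978 bases. The one of 1290 bases, with the later start, had 9.61%, 7.16% and 5.39% of the gene in the controls and 7.70%, 10.7% and 11.3% in the treated libraries, and these overlapped (limma adjusted p = 1.00). Its level was 1.31 ± 0.32 FPKM in controls and 2.17 ± 0.51 FPKM in treated libraries (SD, n = 3), and the groups overlapped (limma adjusted p = 0.566). The main Nup37 transcript of 1272 bases stood at 15.3, 17.2 and 17.2 FPKM in controls and 19.0, 19.8 and 20.02 FPKM in treated libraries. The main Nup88 transcript held 78.1% ± 4.48 of its gene in controls and 76.7% ± 3.61 in treated libraries, and the main Seh1l transcript 93.3% ± 2.77 and 91.8% ± 1.75 (SD, n = 3). Estimates for transcripts that share most exons depend on how the software divides fragments.

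**Figure D5:**
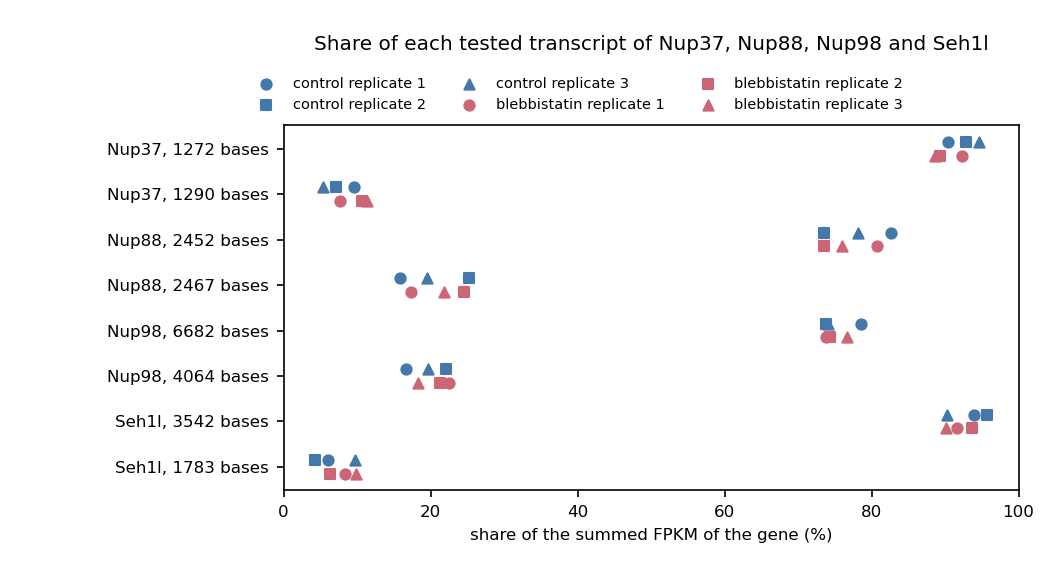
Share in percent of the summed FPKM of the gene for the 8 tested transcripts of Nup37, Nup88, Nup98 and Seh1l, named by length in bases, with 1 point for each library (blue for control, red for blebbistatin). Control and treated points overlap for every transcript, and the Nup98 transcript of 6682 bases lies between 73.8% and 78.6%.

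Soluble transport factors and pore-linked genes outside the rule also had mostly higher means and no calls. Their list, too, was chosen with earlier results of these data known. Of 49 listed genes 45 were tested, and 41 had higher means, against 55.2% of all genes tested, and 4 lower. With limma 0 of the 45 passed, against 0.0780% of all genes. At an unadjusted p under 0.05 there was 1, higher (limma), against 4.46% of all genes in that direction and 9.36% in both. The median log2 fold change was 0.09, against 0.015 over all genes. The groups did not overlap for 2 that were higher, against 7.48% of all genes, and for 1 that was lower, against 6.80%. Kpna2, an importin alpha that carries cargo with a nuclear localization signal and is abundant in dividing cells, had the smallest p of the 45. It stood at 92.0, 129 and 111 FPKM in controls and 147, 155 and 147 FPKM in treated libraries, without overlap (0.44 ± 0.13, SE, limma adjusted p = 0.261). Ipo4, an importin for histones and ribosomal proteins, was lower, with 34.7, 33.0 and 30.2 FPKM in controls and 27.9, 29.7 and 27.1 FPKM in treated libraries, without overlap (-0.20 ± 0.09, limma adjusted p = 0.546). Senp2, a SUMO protease that docks at the pore, had means of 8.87 ± 0.79 and 10.3 ± 0.34 FPKM (SD, n = 3, control first) without overlap (0.20 ± 0.09, limma adjusted p = 0.542). Nxt2, a partner of the mRNA export receptor, had 7.72 ± 1.09 and 9.87 ± 1.80 FPKM and overlapped (0.31 ± 0.15, limma adjusted p = 0.586).

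The 9 tested pore-linked genes all had higher means, against 55.2% of all genes tested, with a median of 0.08. Nupl1, which codes for a further channel protein, had a log2 fold change of 0.06 ± 0.10, Nupl2 0.08 ± 0.10, and Ahctf1, which codes for ELYS, the protein that seeds pores on chromatin after mitosis, 0.14 ± 0.11 (SE). Nup210l, Nup62cl and Pom121l2, relatives of members, were at or below 0.567 FPKM in all 6 libraries, and Pom121l12 was listed at 0 in all.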

How the data were processed

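Libraries came from total RNA with an Illumina TruSeq RNA kit, per the labels. Cufflinks 2.2.1, TopHat2 2.0.13 and Bowtie2 2.2.3 are named in the submitters' processing notes, with the build mm10. The authors deposited FPKM for genes and for transcripts, per the file headers, beside a RefSeq annotation. The abbreviation BB in column names was read as blebbistatin, and a column lacking a number as replicate 1 of its group.

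FPKM are scaled values, so no count model was used. Genes with a mean of at least 1 FPKM were transformed to log2(FPKM + 1) and fitted in R 4.3.3 by limma 3.58.1 (empirical Bayes with a mean-variance trend, treatment as the only term, Benjamini-Hochberg adjustment over all genes tested, threshold 0.05, two-sided). Transcripts were tested likewise, and transcript shares on the arcsine square root scale, for shares from 0.05 to 0.95 in genes with a mean sum of at least 5 FPKM. The fit was tested on simulated data with independent noise and with planted changes larger than those of the members. The simulation therefore does not cover changes as small as theirs, or shifts that many genes of a library share.

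The 27 members and the lists were chosen with earlier results of these data known. Values in every library are given for the 12 members of smallest p and for the most and least abundant of each part of the pore, and, of the transport list, the 4 of smallest p are named. Alternatives were other filters, pseudocounts, scalings, array weights, leaving out each library, a replicate block and, added later, removal of the length trend. Depth is an estimate from transcripts of at least 5000 bases in genes with 1 transcript. The median of their small values inside a set window was taken as 1 fragment, and the estimate covers counting error only. Protein sequences were not used here.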

Additional observations from a re-analysis of the deposited data

How the results depend on the processing

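Under 14 alternatives, 0 of the 27 pore genes passed (smallest adjusted p from 0.103 to 0.644, limma), as did 0 transport genes under 14, 0 pore transcripts under 13 and 0 pore transcript shares under 9. Few genes of the whole table passed in these settings, from 1 with no filter on low values to 144 with a replicate block. The 0 of 27 is thus near the share over all genes and is no trait of the pore genes. For transcripts and shares the calls over all features under the alternatives are not given. The median log2 fold change of the pore genes stayed positive, from 0.078 without control replicate 1 to 0.20 without control replicate 2. That of the transport and pore-linked genes ran from 0.054 (control replicate 3 left out) to 0.14 (control replicate 2 left out).

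Of 378 log2 fold changes of single members, 367 kept their sign, 11 turned, and 0 passed the threshold. With array weights Tpr was at -0.014 and Nup214 at -0.030. Without control replicate 1 Nup155 was at -0.018, Pom121 at -0.015, Nup210 at -0.0036, Tpr at -0.057 and Nup214 at -0.065. Without control replicate 2 Seh1l was at 0.035 and Nup62 at 0.012, and without blebbistatin replicate 1 Seh1l was at 0.038 and Nup214 at -0.024. Leaving out 1 library at a time, these members ran from -0.018 to 0.24 (Nup155), -0.015 to 0.18 (Pom121), -0.0036 to 0.20 (Nup210), -0.057 to 0.17 (Tpr), -0.065 to 0.17 (Nup214), -0.12 to 0.038 (Seh1l) and -0.065 to 0.012 (Nup62). The cause was not tested.

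With the replicate number as a block, 0 pore genes, 0 transport genes, 0 pore transcripts and 0 pore shares passed (limma). Unadjusted p was then under 0.05 for 10 of 27 pore genes (limma), all higher. Of all genes 8.02% did so in that direction and 16.3% in both. The count of all genes with an adjusted p under 0.05 went from 9 to 144. The labels do not state a pairing. In deviations from the mean of their own group, same-numbered libraries correlated with r = 0.18, 0.094 and 0.25 across 11540 genes. Such deviations are linked within a group, so the values are not independent. Each library correlated best with its own number, as a hint from the data. For blebbistatin replicate 2 this was nearly a tie, with r = 0.08 against control replicate 1. Over all genes, array weights gave 57 calls, a minimum mean of 5 FPKM gave 27, removal of the length trend 19, and the fits that left out 1 library 1 to 13. Estimated counting errors of the members were 1.0% to 4.2%, beside coefficients of variation of 4.54% to 15.2% over the 6 libraries. The latter include any difference between the groups. With 3 libraries a group the intervals were of the size shown, and the part of counting error in them was not tested.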
